A study of Mus musculus with 28 samples.

Results

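Antigen presentation and the interferon response were followed in developing mouse peripheral nerve through 39 genes, taken as a fixed list of names from the 41605 gene identifiers in the count table. They comprise 7 genes of class I presentation, 3 catalytic subunits of the immunoproteasome, 5 genes of class II presentation, 5 interferon transcription factors, 4 genes of RNA sensing and the ISG15 system, 8 antiviral effectors, and 7 guanylate-binding proteins and other interferon-induced genes. All 39 were found in the table, and all 39 were among the 17700 genes that passed the filter on low counts. The question was when along nerve maturation these genes change, which of them move at the same step, and which do not.

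Class I molecules (heavy chains such as H2-K1 and H2-D1 with beta-2 microglobulin) display peptides from the cell's own cytosol on almost every nucleated cell. The peptides are cut by the proteasome, whose catalytic subunits can be exchanged for the interferon-inducible set called the immunoproteasome, and are pumped into the endoplasmic reticulum by the transporter formed by Tap1 and Tap2. Class II molecules display peptides taken up from outside and are made mainly by professional antigen-presenting cells, with the invariant chain Cd74 as their chaperone and Ciita as their master regulator. Interferons are secreted cytokines that act through JAK kinases and STAT factors; type I interferons activate a complex that contains Stat2 and Irf9 and binds the interferon-stimulated response element (ISRE), and interferon gamma acts through STAT dimers at gamma-activated sites (GAS) and induces both classes of presentation. In peripheral nerve, resident macrophages are the best known class II-positive cells.

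The nerves came from wild type C57BL/6J mice that were not perfused, with 4 libraries at each of 7 stages: the embryonic stages labelled E13 and E17 (labels that leave off fractions of a day) and postnatal day 1, 5, 14, 24 and 60 (P1 to P60). E13 samples held various nerves distal to the dorsal root ganglia and were not stripped, those of E17 were sciatic nerves, both were pooled from 2 embryos, and each postnatal library was 1 mouse; epineurium and perineurium were stripped as far as possible from E17 on, so that in comparisons with E13 age cannot be told apart from tissue and dissection. Polyadenylated RNA was sequenced with a strand-specific kit, and reads were counted per gene. No stage carried a treatment or a mutation. Per the study, each stage held 2 samples from males and 2 from females, and since the labels used here do not tie a library to a sex, sex was not a term in the fit. The C57BL/6 background itself bears on the list, since this strain carries a truncated Mx1 and, being of the b haplotype, no functional H2-Ea, the usual partner of H2-Eb1.

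Library totals ran from 13899895 to 37662780 counts, so that 3 counts corresponded to between 0.0859 and 0.237 CPM (counts scaled to library size with TMM factors, used throughout). Sox10 and Mbp, markers of Schwann cells, the main glia of peripheral nerve, stood at 117 ± 59.4 and 67.7 ± 21.5 CPM at E13 and at 468 ± 62.1 and 51459 ± 5559 CPM at P14 (mean ± SD, n = 4). E13 replicates 1 and 4 and P1 replicate 1 stood apart from the other libraries of their stages, with median absolute log2 differences of 0.683, 0.618 and 0.31 against 0.112 to 0.287 for the other 25 libraries, and their differences went with the GC content of the genes. These 3 libraries were therefore also left out together, and 2 member calls were lost by it, those of Oas1a at E17 against E13 and of Ifit1 at P1 against E17. GC content accounted for 70.7%, 56.2% and 63.6% of the variance of the differences in these 3 libraries. The share was also large in some others, at 52.1% in P1 replicate 4, 43.4% in P1 replicate 3, 41.5% in P5 replicate 4, 33.6% in P5 replicate 3 and 32% in P24 replicate 1. In bulk tissue, fewer cells of a type and less RNA per cell cannot be told apart for any value given here.

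Promoter windows of 300 bases (250 before to 50 after the start, RefSeq, GRCm38.p6) were available for 30 of the 39 members in 36 windows. The ISRE core, searched as GAAANNGAAA on both strands (TTTCNNTTTC on the reverse), was present in 13 of the 36 member windows (36.1%), against 3.44% of all 32851 windows. The members holding it were B2m, Bst2, Ddx58, Gbp2, Gbp3, Gbp7, Ifih1, Ifit1, Ifit3, Isg15, Oas1a, Rsad2 and Stat2. Stretches of 30 bases are printed for the 6 of these that were called higher from P5 to P14, together with Isg15, called at the next step, and B2m of class I. They run 5′ to 3′ on the strand of the match, with the ISRE core in capitals.
Ifit1 (chr19:34640775-34640804, minus strand): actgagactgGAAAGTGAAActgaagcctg
Ifit3 (chr19:34583397-34583426, minus strand): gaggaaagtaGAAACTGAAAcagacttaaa
Gbp2 (chr3:142620594-142620623, minus strand): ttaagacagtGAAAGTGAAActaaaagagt
Gbp3 (chr3:142559989-142560018, minus strand): ctgggaaataGAAACTGAAActgtgtcctg
Gbp7 (chr3:142530273-142530302, minus strand): atggagaactGAAACTGAAActgcacacac
Rsad2 (chr12:26456553-26456582, plus strand): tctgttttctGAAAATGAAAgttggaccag
Isg15 (chr4:156200871-156200900, minus strand): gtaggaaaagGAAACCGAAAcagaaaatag
B2m (chr2:122147538-122147567, plus strand): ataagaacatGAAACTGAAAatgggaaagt

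Ifit1, Ifit3, Gbp3, Oas1a and Bst2 held 2 such matches and Isg15 held 3, overlapping ones in Gbp3, Oas1a, Bst2 and Isg15. The GAS core, searched as TTCNNNGAA (its own reverse complement), lay in 22.2% of member windows and 8.3% of all windows, in Bst2, Gbp7, Ifi35, Ifit2, Irf1, Irf8, Oas1a and Psmb8. In Bst2 the GAS core match ran into the ISRE core match. The X box core of class II promoters, searched as AGNNACNNATG (CATNNGTNNCT on the reverse), lay in the windows of H2-Eb1 and Psmb10, in 5.56% of member windows and 3.09% of all windows. Only 2 of the 5 class II members, H2-Aa and H2-Eb1, had a window to search, and the match is shown in capitals for H2-Eb1.
H2-Eb1 (chr17:34305766-34305795, plus strand): tctctaactAGCAACTGATGatgctggact

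A match says only that these letters are present in the window. Several members are also neighbours in the genome (GRCm38, GENCODE M21). Psmb9, Tap1, Psmb8, Tap2, H2-Ab1, H2-Aa and H2-Eb1 follow one another on chromosome 17 between 34181987 and 34316674, H2-K1 lies at 33996017 to 34000347 and H2-D1 at 35262730 to 35267499 of the same chromosome. Tap1 and Psmb9 start head to head, their promoter windows share 275 of 300 bases, and their exons overlap on opposite strands. Gbp7, Gbp3 and Gbp2 lie side by side on chromosome 3 (142530342 to 142638008), and Ifit2, Ifit3 and Ifit1 on chromosome 19 (34550694 to 34650009).

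Along the 7 stages, the members were lowest in the embryo and highest in the juvenile and adult nerve. The stage with the highest mean was P60 for 22 members, P24 for 16 and E13 for 1 (Irf8), and the stage with the lowest mean was E13 for 27, E17 for 8, P1 for 2 and P5 for 2. Over the whole timeline 38 of the 39 changed (edgeR quasi-likelihood F test, Benjamini-Hochberg adjusted p under 0.05 and at least 2-fold between the highest and lowest stage), beside 70.0% of all genes tested. The exception was Stat2.

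**Figure D1:**
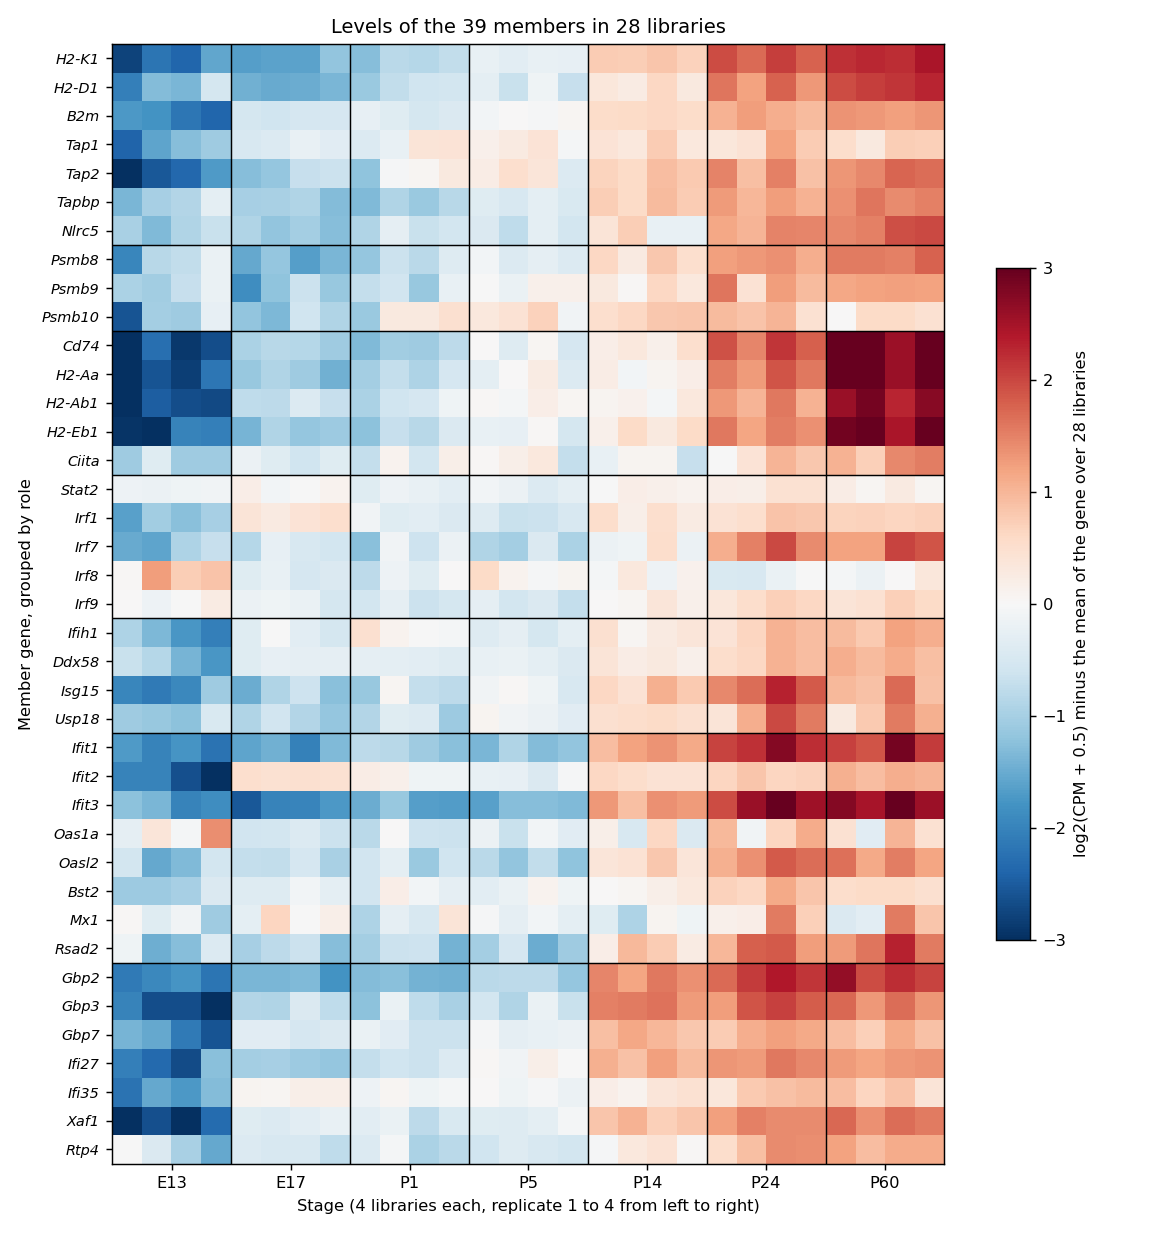
Heat map of the 39 members (rows, grouped by role) in the 28 libraries (columns, ordered by stage and replicate). Colour gives log2(CPM + 0.5) minus the gene's mean over the libraries. Blue values fill the embryonic and newborn columns for most genes, the rows of Ifit1, Ifit3, Gbp2, Gbp3 and Gbp7 turn red at P14, and the rows of Cd74, H2-Aa, H2-Ab1 and H2-Eb1 reach their deepest red at P60.

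Between P1 and P60, newborn and adult nerve, 30 of the 39 members were called higher (76.9%) and 0 lower, where a call means an adjusted p under 0.05 and at least a 2-fold change. Values after ± are standard errors for log2 fold changes and SDs (n = 4) for CPM levels. Among all genes tested, 35.5% were called in this comparison, 20.3% higher and 15.2% lower. The median log2 fold change of the members was 2.00, against -0.02 over all genes. The 9 members that were not called were Tap1, Psmb10, Stat2, Irf1, Irf8, Ifih1, Bst2, Mx1 and Ifi35, all with higher means at P60 than at P1.

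The calls were not spread evenly over the steps. From P5 to P14, 12 members were called higher and 0 lower (30.8%), against 12.0% of all genes called, 7.11% higher and 4.91% lower. With scaling by library size alone, under which the all-gene median was -0.17 at this step, 7 members were called, and H2-K1, Tapbp, Irf7, Ifi27 and Xaf1 fell just under 2-fold. From P14 to P24, 12 of 39 were called higher and 0 lower, 5 of them (H2-K1, Ifit1, Ifit3, Irf7 and Oasl2) also called at the step before, against 2.65% of all genes called, 1.51% higher and 1.14% lower. From P24 to P60, 4 members were called higher (10.3%) and 0 lower, against 5.96% of all genes called, 2.55% higher and 3.41% lower. Medians of the members' log2 fold changes at these 3 steps were 0.75, 0.71 and 0.12, with all-gene medians between -0.01 and 0.00. Consecutive steps share the libraries of 1 stage, and whether a gene's steps differed from each other was not tested.

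The early postnatal steps gave few calls. From E17 to P1, 2 members were called higher (Psmb10 and Ifit1) and 0 lower, against 11.7% of all genes called, 6.31% higher and 5.41% lower. From P1 to P5, 0 members were called in the edgeR test, against 5.84% of all genes called, 4.05% higher and 1.79% lower. At that step 13 members had an unadjusted p under 0.05 and 8 an adjusted p under 0.05 without the fold minimum. DESeq2 and limma-voom also called 0, while 2 were called when P1 replicate 4 was left out.

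**Figure D2:**
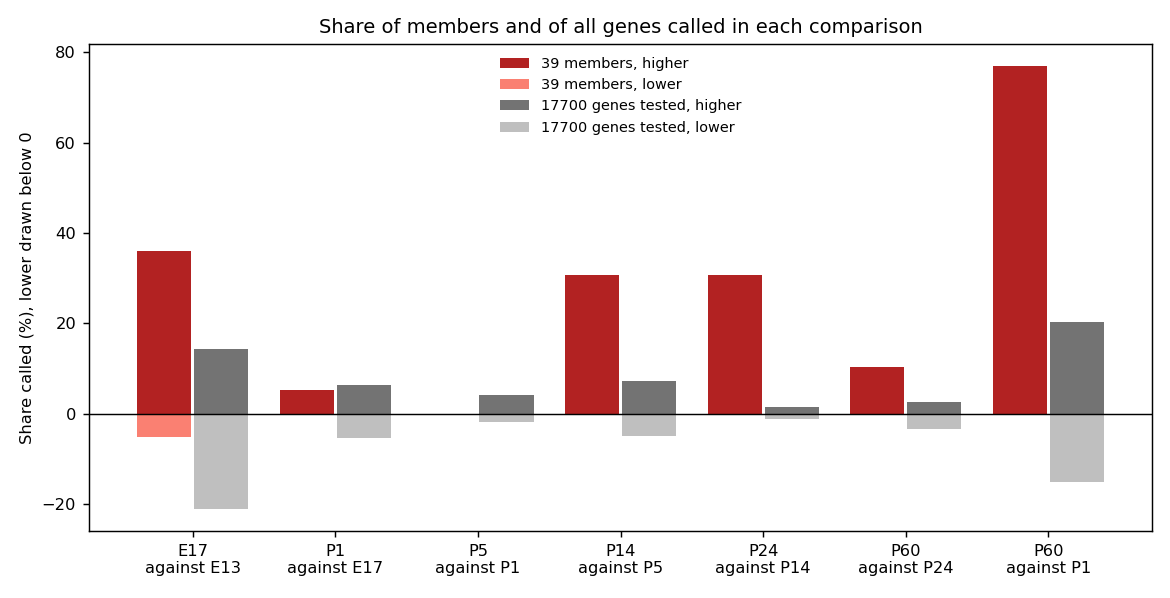
Bars give the share of the 39 members (red) and of the 17700 genes tested (grey) called higher, drawn upward, or lower, drawn downward from 0, in each of 7 comparisons. The red bars reach 30.8% at P14 against P5 and again at P24 against P14, where the grey bars for higher genes reach 7.11% and 1.51%, and 76.9% at P60 against P1.

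Class I genes rose over postnatal life. Of the 7, 6 were called higher at P60 than at P1, with a median log2 fold change of 2.55, and Tap1 was the one not called. B2m, the light chain shared by all class I molecules, read 75.5, 72.4, 55.9 and 48.3 CPM at E13, 175, 166, 178 and 177 at E17, 213, 195, 174 and 186 at P1, 237, 255, 246 and 262 at P5, 371, 375, 387 and 367 at P14, 519, 599, 533 and 490.4 at P24, and 637, 618, 595 and 633 at P60. From P5 on, the libraries of each stage lay above all of the stage before, except that those of P24 and P60 touched. Its log2 fold change from P1 to P60 was 1.69 ± 0.11 (adjusted p = 2.5e-13), made up of steps under 2-fold (0.38, 0.58, 0.51 and 0.21).

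H2-K1, a classical class I heavy chain, stood at 3.81, 5.98, 5.13 and 9.58 CPM at E13, 8.91, 9.14, 9.19 and 12.4 at E17, 11.6, 16.3, 15.8 and 17.2 at P1, 24.9, 23, 24.8 and 24.2 at P5, 49.1, 48.9, 52.1 and 47.4 at P14, 114, 94.9, 123 and 100.001 at P24, and 135, 141, 137 and 160.1 at P60. The groups from P1 on did not overlap. H2-K1 rose 2-fold from P5 to P14 (1.03 ± 0.17, adjusted p = 3.1e-05, and 0.85 with scaling by library size alone) and again to P24 (1.13 ± 0.17, adjusted p = 7.8e-05), for a total from P1 to P60 of 3.23 ± 0.18 (adjusted p = 1.5e-14). H2-D1, the other classical heavy chain of this haplotype, was measured at 10.6, 18.3, 17.4 and 31.3 CPM at E13, 16.5, 15.6, 16 and 17.5 at E17, 21, 27.2, 29.9 and 30.9 at P1, 37, 28.7, 41.6 and 28 at P5, 57.5, 54.3, 70.3 and 56.4 at P14, 139.5, 107, 156 and 114 at P24, and 179, 192, 202 and 224 at P60. Its E13 libraries spread over the E17 and P1 range, while P14, P24 and P60 did not overlap with one another. H2-D1 rose from P14 to P24 (1.11 ± 0.20, adjusted p = 0.00075) and by less than 2-fold to P60 (0.63 ± 0.20, adjusted p = 0.0315), and over P1 to P60 by 2.87 ± 0.21 (adjusted p = 6e-12).

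Nlrc5, the transactivator of class I genes, read 0.497, 0.283, 0.542 and 0.737 CPM at E13, 0.550, 0.370, 0.466 and 0.314 at E17, 0.547, 1.12, 0.729 and 0.838 at P1, 0.959, 0.659, 1.11 and 0.844 at P5, 2.05, 2.77, 1.18 and 1.18 at P14, 3.86, 3.45, 5.04 and 4.89 at P24, and 4.82, 5.08, 6.96 and 7.28 at P60. Every P24 and P60 library exceeded every earlier one. Its log2 fold change was 0.99 ± 0.30 (adjusted p = 0.0117) from P5 to P14, just under the 2-fold minimum but called in 19 of 37 alternatives, and 1.28 ± 0.28 (adjusted p = 0.00462) from P14 to P24. Tapbp, the tapasin that holds class I molecules at the peptide transporter, went from 23.9 ± 1.57 to 53.8 ± 5.75 CPM (1.17 ± 0.16, adjusted p = 1.5e-06, and 0.998 with scaling by library size alone) and reached 88.8 ± 6.43 CPM at P60. Tap2 rose from 7.11 ± 2.83 to 23.8 ± 3.24 CPM between P1 and P60 (1.74 ± 0.32, adjusted p = 3e-05). Tap1, which forms the transporter with Tap2, was at 8.01 ± 2.35 and 11.5 ± 1.68 CPM at the same stages with overlapping libraries (0.52 ± 0.25, adjusted p = 0.068). Tapbp shares exon sequence with Zbtb22 on the same strand, and reads of near-identical class I heavy chains may have been divided among H2-K1, H2-D1 and the H2-Q genes.

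**Figure D3:**
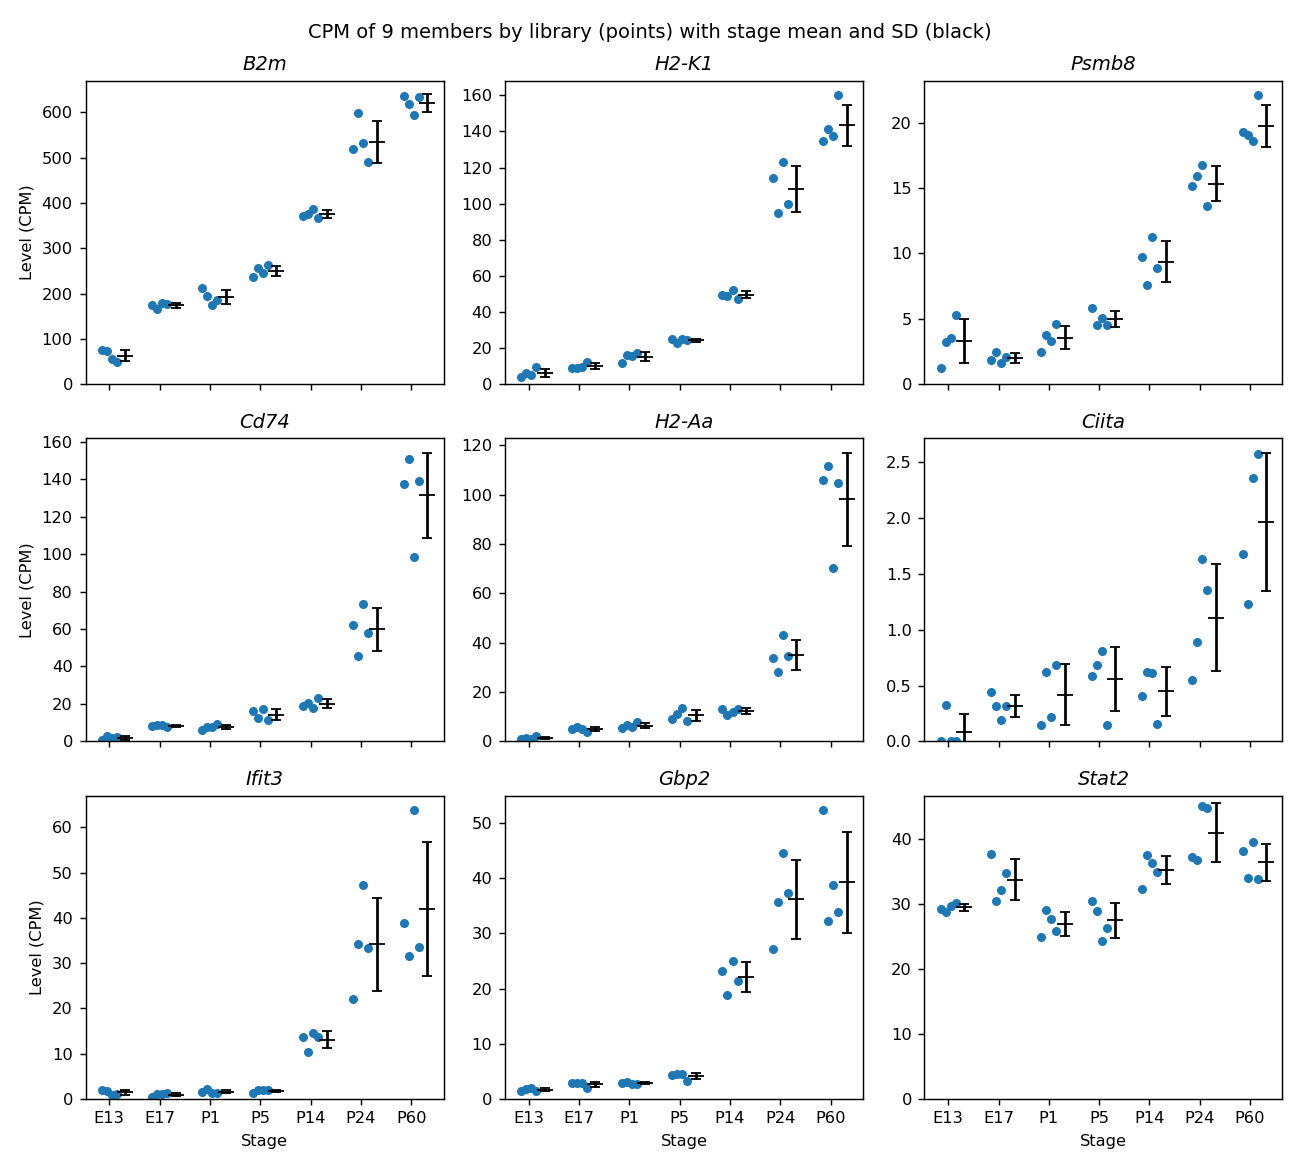
Each panel plots the CPM of 1 member in the 28 libraries (blue points, 4 per stage) with the stage mean and SD in black, on linear axes from 0. The means of B2m and H2-K1 climb at each stage and that of Psmb8 from E17 on, those of Cd74, H2-Aa and Ciita are highest at P60, Ifit3 and Gbp2 jump between P5 and P14, and Stat2 stays between 24.2 and 45.04 CPM in all libraries.

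Of the 3 immunoproteasome subunits, Psmb8 and Psmb9 were called higher from P1 to P60 and Psmb10 was not, although the difference between them was not tested. Psmb8 (LMP7) read 1.23, 3.23, 3.50 and 5.32 CPM at E13, 1.81, 2.48, 1.63 and 2.07 at E17, 2.48, 3.75, 3.32 and 4.59 at P1, 5.84, 4.55, 5.05 and 4.52 at P5, 9.76, 7.57, 11.3 and 8.89 at P14, 15.1, 15.9, 16.7 and 13.6 at P24, and 19.3, 19.1, 18.6 and 22.2 at P60. The P60 libraries lay above all P24 libraries, and these above all P14 libraries, although no single step reached the call. From P1 to P60 Psmb8 rose by 2.48 ± 0.26 (adjusted p = 3.2e-09). Psmb9 (LMP2), which lies on the other side of the Tap1 promoter, read 0.861, 0.767, 1.12 and 1.79 CPM at E13, 0.220, 0.634, 1.16 and 0.691 at E17, 1.09, 1.25, 0.693 and 1.74 at P1, 2.08, 1.78, 2.40 and 2.39 at P5, 2.71, 2.20, 3.51 and 2.77 at P14, 7.41, 3.03, 5.73 and 4.59 at P24, and 5.34, 5.51, 5.66 and 5.59 at P60. All P24 and P60 libraries except P24 replicate 2 exceeded the highest P14 library, and the log2 fold change from P1 to P60 was 2.20 ± 0.33 (adjusted p = 1.6e-06).

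Psmb10 (MECL-1), on chromosome 8, stood at 2.25, 7.63, 7.44 and 13.5 CPM at E13, 6.76, 5.97, 10.4 and 8.36 at E17, 7.11, 19.8, 19.8 and 22.6 at P1, 20.01, 21.9, 26 and 14.9 at P5, 22.9, 24.9, 28.5 and 28.9 at P14, 31.3, 29.6, 33 and 22 at P24, and 16.2, 23.9, 24 and 22.1 at P60. P1 replicate 1, one of the 3 libraries that stood apart, lay within the E17 range and the other 3 P1 libraries lay above it. The rise from E17 to P1 was called (1.13 ± 0.34, adjusted p = 0.0117), and without P1 replicate 4 it was 0.97 on the log2 scale, under the 2-fold minimum. From P1 to P60 the log2 fold change was 0.32 ± 0.33 (adjusted p = 0.416), and the highest mean was that of P24. None of the 6 constitutive counterparts and activator subunits (Psmb5, Psmb6, Psmb7, Psme1, Psme2 and Psme3) was called in any of the 7 comparisons, and their median log2 fold change from P1 to P60 was -0.53.

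Class II genes rose before birth and again late. At E17 against E13, calls went to 4 of the 5 (all but Ciita, all higher), a step in which age cannot be told apart from tissue and dissection. All 5 were called higher at P60 than at P1, with a median log2 fold change of 3.81, and 4 of them (Cd74, H2-Aa, H2-Ab1 and H2-Eb1) were called again at both of the last steps; they are the 4 members called from P24 to P60. Cd74, the invariant chain, read 0.696, 2.99, 1.77 and 2.16 CPM at E13, 8.19, 8.93, 8.73 and 7.54 at E17, 6.20, 7.66, 7.47 and 9.18 at P1, 16.5, 12.3, 17.1 and 11.3 at P5, 18.7, 20.5, 18 and 23.2 at P14, 62.2, 45.7, 73.3 and 57.9 at P24, and 138, 150.5, 98.6 and 139 at P60. The P24 libraries lay above all earlier ones and the P60 libraries above all of P24. Cd74 changed by 0.90 ± 0.22 (adjusted p = 0.00488) from P1 to P5, a step under 2-fold, by 0.49 from P5 to P14, by 1.57 ± 0.22 (adjusted p = 3.4e-05) from P14 to P24 and by 1.14 ± 0.22 (adjusted p = 0.00041) at the last step. The total from P1 to P60 was 4.10 ± 0.24 (adjusted p = 5.4e-14).

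H2-Aa, the class II alpha chain, was at 0.861, 1.45, 1.16 and 2.11 CPM at E13, 4.84, 5.81, 5.12 and 3.83 at E17, 5.36, 6.66, 5.69 and 7.85 at P1, 9.17, 11.3, 13.5 and 8.33 at P5, 13.2, 10.6, 12 and 13.1 at P14, 33.7, 28.1, 43.1 and 34.8 at P24, and 106, 112, 70.2 and 105 at P60. P5 and P14 overlapped, P24 did not overlap with either, and P60 replicate 3, the lowest of its stage, still exceeded the highest P24 library. The log2 fold changes of H2-Aa were 0.21 from P5 to P14, 1.51 ± 0.19 (adjusted p = 1e-05) from P14 to P24, and 1.49 ± 0.19 (adjusted p = 2.2e-06) from P24 to P60. H2-Ab1, the matching beta chain, went from 7.15 ± 0.815 CPM at P14 to 16.2 ± 3.14 at P24 and 43.1 ± 7.33 at P60 (1.41 ± 0.21, adjusted p = 1.6e-05 at the last step). H2-Eb1, a beta chain without its functional alpha partner in this strain, went from 10.03 ± 1.48 to 20.9 ± 2.56 and 58.5 ± 11.2 CPM (1.49 ± 0.22, adjusted p = 2.2e-05). The call of H2-Eb1 at P24 against P14 (log2 fold change 1.05) fell just under 2-fold without P14 replicate 1 (0.97) or without P24 replicate 1 (0.998).

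Ciita, which switches class II genes on, was close to the detection limit until P14 and read 0, 0.323, 0 and 0 CPM at E13, 0.440, 0.317, 0.194 and 0.314 at E17, 0.146, 0.625, 0.219 and 0.683 at P1, 0.584, 0.687, 0.813 and 0.147 at P5, 0.409, 0.622, 0.613 and 0.152 at P14, 0.552, 0.889, 1.63 and 1.35 at P24, and 1.68, 1.23, 2.36 and 2.57 at P60. It rose from P1 to P60 (2.22 ± 0.62, adjusted p = 0.00312), and its exons overlap those of Dexi on the opposite strand. Of the 7 listed factors that occupy class I and class II promoters together with Nlrc5 and Ciita (Rfx5, Rfxap, Rfxank, Nfya, Nfyb, Nfyc and Creb1), 0 were called higher and 1 lower from P1 to P60. The one that fell was Rfx5, from 19 ± 1.20 to 9.42 ± 1.11 CPM (-1.01 ± 0.14, adjusted p = 3.4e-07).

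H2-DMa and H2-DMb1 were called at steps from E17 to P14, at which 0 of the class II members were called. They encode the 2 chains of H2-DM, which exchanges the invariant chain fragment for peptide. H2-DMa stood at 7.0 ± 2.04 CPM at P1, 46.3 ± 2.98 at P5, 126 ± 8.90 at P14 and 126 ± 17.1 at P60, with log2 fold changes of 1.17 ± 0.22 (adjusted p = 0.00015) from E17 to P1, 2.72 ± 0.20 (adjusted p = 1.4e-10) from P1 to P5 and 1.44 ± 0.19 (adjusted p = 1.3e-06) from P5 to P14. H2-DMb1 stood at 2.29 ± 0.714, 29.1 ± 3.86, 132 ± 18 and 135 ± 27.2 CPM at the same stages, with log2 fold changes of 1.53 ± 0.31 (adjusted p = 0.00037), 3.65 ± 0.25 (adjusted p = 1.9e-11) and 2.19 ± 0.22 (adjusted p = 1.3e-08) at the same steps. Neither was called at P24 against P14 or at P60 against P24 (log2 fold changes of 0.14 and -0.13 for H2-DMa, 0.39 and -0.35 for H2-DMb1), the 2 steps at which Cd74, H2-Aa, H2-Ab1 and H2-Eb1 were called. Of the 10 tested genes in the list of other class II genes, 5 were called higher from P1 to P60 and 0 lower, the others being Cd86, a costimulatory ligand (2.23 ± 0.27, adjusted p = 7.4e-08), H2-DMb2 and H2-Ob, the last 2 named after their values were seen.

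Macrophage, general leukocyte and other immune markers were measured in the same libraries. The 10 macrophage markers (Csf1r, Cd68, Adgre1, Aif1, Mrc1, Cx3cr1, Fcgr1, Cd163, Lyve1 and Mertk) summed to 139 to 157 CPM over the P1 libraries, 231 to 283 at P14, 219 to 345 at P24 and 348 to 399.964 at P60. From P1 to P60, 4 of the 10 were called higher and 1 lower (median log2 fold change 0.78), and 4 were called higher and 0 lower from P1 to P5 (median 0.95). From P14 to P24, 0 of the 10 were called, and from P24 to P60 Mertk was called higher and Cx3cr1 lower, with a median log2 fold change of -0.05. The 5 markers of all leukocytes (Ptprc, Coro1a, Laptm5, Cd52 and Cd53) summed to 32.9 to 39.6 CPM at P14, 39.6 to 55.8 at P24 and 34.7 to 49.7 at P60, and 0 of 5 were called at either step. Over the same libraries the sum of Cd74, H2-Aa, H2-Ab1 and H2-Eb1 ran from 45.5 to 55.7 CPM at P14 to 105 to 159 at P24 and 245 to 378 at P60.

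Some markers of other cells did move beside the class II genes. Of the 9 dendritic cell markers listed, 7 were tested, and Cd209a and Batf3 were called higher from P24 to P60 (log2 fold changes of 1.71 and 1.68), both from under 1 CPM, while Flt3 and Zbtb46 were not called. The log2 fold changes of 6 of the 7 were positive at this step, with a median of 0.73. From P14 to P24, 0 of the 7 were called higher and 1 lower (Clec9a), and the fold changes of 2 were positive (median -0.14 on the log2 scale). At the last step 3 of the 5 tested neutrophil markers and 1 of the 2 tested T and NK cell markers were called lower. B cell markers summed to at most 3.56 CPM and T and NK cell markers to at most 2.35 CPM in any postnatal library. The part of each of these cell types in the class II values was not tested.

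**Figure D4:**
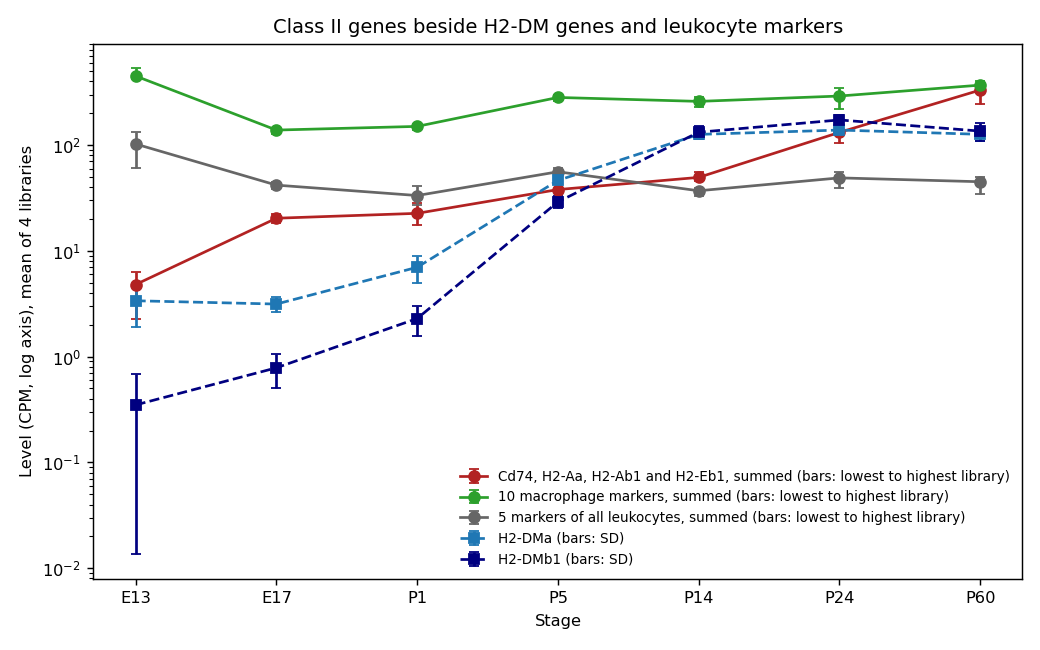
Mean CPM of 4 libraries per stage on a log axis for the summed class II genes Cd74, H2-Aa, H2-Ab1 and H2-Eb1 (red), the summed macrophage (green) and general leukocyte (grey) markers, and H2-DMa and H2-DMb1 (blue, dashed). Bars span the lowest to highest library for sums and the SD for single genes. The H2-DM curves level off at P14, the class II sum rises from 49.5 to 331 CPM between P14 and P60, and the macrophage sum from 259 to 369 CPM.

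Of the 8 interferon-stimulated antiviral effectors, 4 were called higher from P5 to P14 (Ifit1, Ifit3, Rsad2 and Oasl2) and 3 of these again from P14 to P24 (Ifit1, Ifit3 and Oasl2), whereas 0 were called from P24 to P60. Ifit1, which binds viral RNA lacking host cap methylation, read 0.364, 0.202, 0.325 and 0.105 CPM at E13, 0.440, 0.528, 0.194 and 0.628 at E17, 1.13, 1.08, 0.839 and 0.683 at P1, 0.584, 1.0, 0.642 and 0.734 at P5, 4.86, 5.99, 6.70 and 5.62 at P14, 10.9, 12.3, 18.4 and 12.6 at P24, and 11.2, 9.80, 20.1 and 11.5 at P60. The lowest P14 library exceeded the highest P5 library, and P24 and P60 overlapped. Its log2 fold changes were 2.94 ± 0.29 (adjusted p = 8.7e-09) from P5 to P14 and 1.23 ± 0.25 (adjusted p = 0.00231) from P14 to P24. The earlier call of Ifit1 at P1 against E17 (1.10 ± 0.35, adjusted p = 0.0164) was lost without E17 replicate 3 (0.81) and without P1 replicate 1 (0.98).

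Ifit3, which joins Ifit1 in a complex, read 1.95, 1.74, 0.939 and 1.11 CPM at E13, 0.495, 0.951, 0.970 and 1.26 at E17, 1.57, 2.12, 1.35 and 1.30 at P1, 1.38, 1.89, 1.88 and 1.84 at P5, 13.7, 10.3, 14.5 and 13.6 at P14, 22, 34.2, 47.2 and 33.3 at P24, and 38.9, 31.5, 63.8 and 33.6 at P60. The groups from P5 to P24 did not overlap. Ifit3 rose by 2.89 ± 0.27 (adjusted p = 3.8e-09) from P5 to P14 and by 1.39 ± 0.24 (adjusted p = 0.00039) from P14 to P24, and changed by 0.29 ± 0.23 (adjusted p = 0.462) from P24 to P60. Over P1 to P60 its log2 fold change, 4.73 ± 0.28 (adjusted p = 5.9e-14), was the largest among the 39 members, and its near copy Ifit3b, with which it may share reads, rose by 4.95 ± 0.41 (adjusted p = 5.5e-11).

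Ifit2, the neighbour of both, stood at 9.11, 9.09, 5.71 and 3.21 CPM at E13, 54, 52.3, 53.2 and 52.3 at E17, 44.3, 42, 34.7 and 34.6 at P1, 32.5, 31.7, 27.9 and 37.1 at P5, 59.2, 55.1, 51.7 and 51.6 at P14, 59.8, 68, 59.3 and 62.1 at P24, and 80.7, 72.7, 81.5 and 77.3 at P60. It was high already at E17, with a log2 fold change of 2.95 ± 0.19 (adjusted p = 3.5e-13) from E13, the largest of the members at that step, and it stood lower at P5 than at E17. From P5 to P14 it changed by 0.75, under 2-fold. Its change from P1 to P60 was 1.00 ± 0.17 (adjusted p = 1.6e-05), at the 2-fold limit, and it fell under that limit when any one of P1 replicates 3 and 4 and P60 replicates 1 and 3 was left out (0.96 to 0.99) and with scaling by library size alone (0.81).

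Bst2 (tetherin), which holds budding virus at the cell surface, read 6.43, 6.42, 6.97 and 10.5 CPM at E13, 10.9, 10.8, 13.5 and 11.6 at E17, 9.55, 16.5, 13.6 and 11.9 at P1, 11.5, 12.5, 15.5 and 13 at P5, 14.6, 14.9, 16.3 and 17.9 at P14, 23.3, 22.4, 32.2 and 26 at P24, and 21.1, 21.7, 21.6 and 20.2 at P60. P24 was the highest stage and did not overlap with the others, but Bst2 was called in none of the postnatal comparisons run (P60 against P1 0.72 ± 0.16, adjusted p = 0.00042). Rsad2 (viperin) went from 1.05 ± 0.443 to 4.08 ± 1.21 CPM (1.92 ± 0.38, adjusted p = 0.00028) and to 9.72 ± 3.40 at P60. Oasl2, an OAS-like protein, went from 3.10 ± 0.598 to 9.45 ± 1.55 and 19.6 ± 4.62 CPM (1.61 ± 0.24, adjusted p = 8.5e-06, then 1.06 ± 0.23, adjusted p = 0.00444), the second step falling just under 2-fold without P24 replicate 3 (0.93) or 4 (0.99). Oas1a, a 2′-5′ oligoadenylate synthetase with several close relatives, was called from P1 to P60 (1.40 ± 0.47, adjusted p = 0.0119) although its libraries overlapped, and the call was lost without P60 replicate 3 (1.07). Mx1 stayed at or under 2.92 CPM and was not called at any step (P24 against P14 1.66 ± 0.65, adjusted p = 0.16).

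The 3 guanylate-binding proteins, interferon-inducible GTPases that coat pathogen vacuoles, rose at P14. Of the 7 genes in this group, 5 were called higher from P5 to P14 (Gbp2, Gbp3, Gbp7, Ifi27 and Xaf1) and 0 at either later step. Gbp2 read 1.46, 1.74, 1.99 and 1.37 CPM at E13, 2.80, 2.80, 2.87 and 1.95 at E17, 2.95, 3.04, 2.66 and 2.64 at P1, 4.38, 4.41, 4.41 and 3.30 at P5, 23.1, 18.8, 25.1 and 21.3 at P14, 27.1, 35.7, 44.6 and 37.3 at P24, and 52.4, 32.2, 38.8 and 33.8 at P60. There was a gap from 4.41 CPM, the highest P5 library, to 18.8 CPM, the lowest of P14 (2.42 ± 0.17, adjusted p = 3.2e-11). Gbp3 read 1.62, 0.848, 0.831 and 0.368 CPM at E13, 4.12, 4.07, 5.74 and 4.52 at E17, 3.10, 6.87, 4.48 and 3.82 at P1, 5.29, 4.04, 6.93 and 4.85 at P5, 23.8, 24.5, 25.6 and 20.1 at P14, 19.8, 31.1, 34.5 and 29.5 at P24, and 27.7, 20.4, 26.7 and 20.8 at P60. It showed a gap between the same stages (2.16 ± 0.25, adjusted p = 2e-07), and its P14, P24 and P60 libraries overlapped. Gbp7 went from 12.5 ± 0.898 to 28.4 ± 3.02 CPM (1.18 ± 0.18, adjusted p = 1.1e-05) and stood at 27.3 ± 3.30 at P60. Reads of near-identical guanylate-binding protein genes may have been divided among them.

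Ifi27, a small membrane protein, read 4.64, 3.76, 2.82 and 8.42 CPM at E13, 9.95, 10.2, 9.43 and 9.05 at E17, 12.5, 13.6, 13.2 and 15.4 at P1, 21.4, 19.3, 23.6 and 20.6 at P5, 44, 38.8, 49.3 and 40.3 at P14, 53.2, 50.9, 63.2 and 57.6 at P24, and 51.4, 47.8, 52.1 and 53.5 at P60. Each stage from E17 to P14 lay above the one before without overlap. The step from P5 to P14 was called (1.02 ± 0.18, adjusted p = 6.8e-05) and went just under 2-fold without P5 replicate 2 (0.98), without P14 replicate 3 (0.95) and with scaling by library size alone (0.85). Xaf1, a proapoptotic interferon-induced factor, read 1.13, 1.66, 1.05 and 2.21 CPM at E13, 9.90, 9.56, 10.3 and 11.1 at E17, 10.2, 11.3, 7.29 and 9.31 at P1, 10.05, 9.74, 10.5 and 12.4 at P5, 23.6, 27.2, 21.8 and 23.4 at P14, 31.1, 38, 35.5 and 35.4 at P24, and 44.2, 34.5, 42.4 and 39.1 at P60. Its P5 and P14 libraries were well apart (1.17 ± 0.15, adjusted p = 1.4e-06, and 0.99 with scaling by library size alone), as were E13 and E17 (2.78 ± 0.18, adjusted p = 3.6e-13). Rtp4 rose over the whole postnatal range (1.82 ± 0.29, adjusted p = 4.7e-06), whereas Ifi35 changed by less than 2-fold from P1 to P60 (0.80 ± 0.16, adjusted p = 0.0001).

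**Figure D5:**
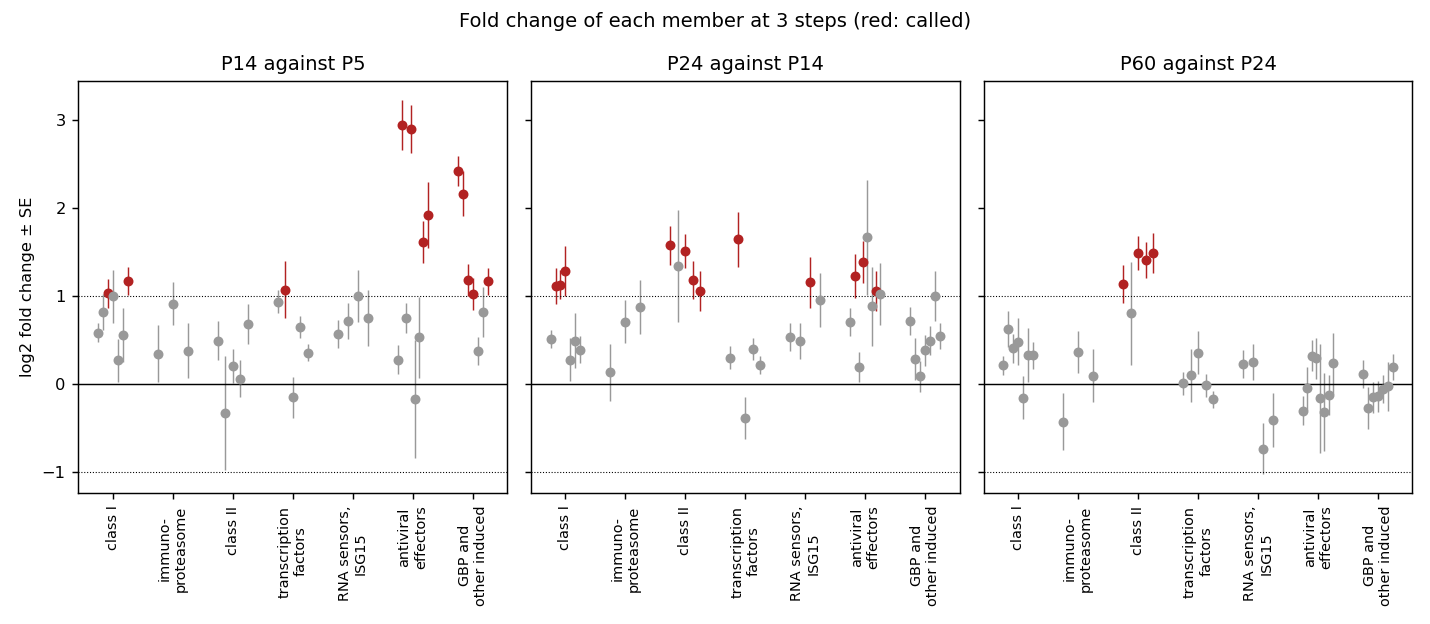
Log2 fold change with SE for each of the 39 members at 3 steps, grouped by role; red marks calls and dotted lines mark 2-fold. At P14 against P5 the largest values are those of antiviral effectors and guanylate-binding proteins (up to 2.94), at P24 against P14 called genes lie in 5 of the 7 groups, and at P60 against P24 the called genes are the 4 class II genes.

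Of the 4 genes of RNA sensing and the ISG15 system, 3 were called higher from P1 to P60, 0 from P5 to P14 and 1 from P14 to P24. Ddx58 (RIG-I), a sensor of uncapped viral RNA, read 9.74, 8.48, 5.67 and 4.32 CPM at E13, 12.2, 13.2, 13 and 12.9 at E17, 13, 12.7, 12.5 and 11.9 at P1, 13.4, 13.6, 12.8 and 11.5 at P5, 20.8, 18.4, 19.6 and 17.6 at P14, 23.1, 24.4, 32.9 and 30.4 at P24, and 34.4, 30.9, 34.9 and 30.1 at P60. P1 and P5 overlapped and each later stage lay above P5, with a log2 fold change from P1 to P60 of 1.38 ± 0.16 (adjusted p = 3.5e-08) in steps under 2-fold. Ifih1 (MDA5), the sensor of long double-stranded RNA, read 3.44, 2.42, 1.73 and 1.3 CPM at E13, 5.33, 6.92, 5.51 and 4.71 at E17, 9.95, 7.54, 6.96 and 6.73 at P1, 5.25, 5.76, 4.66 and 5.65 at P5, 10.02, 7.35, 8.54 and 9.12 at P14, 9.46, 11.2, 14.8 and 13.7 at P24, and 13.9, 12.5, 16.9 and 15.4 at P60. It was not called from P1 to P60 (0.91 ± 0.20, adjusted p = 0.00035), and its highest single values were at P24 and P60.

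Isg15, a ubiquitin-like modifier, read 0.729, 0.606, 0.758 and 1.79 CPM at E13, 1.21, 2.06, 2.6 and 1.51 at E17, 1.68, 4.46, 2.41 and 2.30 at P1, 3.92, 4.38, 3.89 and 2.94 at P5, 6.85, 5.99, 9.60 and 7.75 at P14, 12.6, 14.9, 23.3 and 16.5 at P24, and 8.92, 8.27, 15 and 8.35 at P60. The P60 libraries lay in the range of P14, apart from replicate 3. The log2 fold changes of Isg15 were 1.00 ± 0.30 (adjusted p = 0.0117) from P5 to P14, just under the call but called in 21 of 37 alternatives, 1.16 ± 0.29 (adjusted p = 0.0144) from P14 to P24, and -0.73 ± 0.29 (adjusted p = 0.0892) from P24 to P60. The P24 call was lost without P24 replicate 3 (0.96, adjusted p = 0.087) and without P14 replicate 1 (adjusted p = 0.0513) or 2 (adjusted p = 0.0627). Usp18, the protease that removes Isg15 and restrains interferon signalling, read 0.828, 0.767, 0.686 and 1.53 CPM at E13, 0.990, 1.37, 1.01 and 0.754 at E17, 1.02, 1.67, 1.60 and 0.807 at P1, 2.46, 2.09, 1.97 and 1.73 at P5, 3.37, 3.50, 3.63 and 3.38 at P14, 3.15, 5.49, 10.5 and 7.68 at P24, and 2.92, 4.28, 7.71 and 5.40 at P60. Its P24 and P60 libraries were widely spread, and it was called from P1 to P60 (2.00 ± 0.33, adjusted p = 6.9e-06) but at no single step.

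Of the 5 interferon transcription factors, 2 were called higher from P1 to P60, Irf7 and Irf9. Stat2 read 29.2, 28.8, 29.7 and 30.1 CPM at E13, 37.6, 30.4, 32 and 34.7 at E17, 24.9, 29.1, 27.7 and 25.8 at P1, 30.4, 28.8, 24.2 and 26.3 at P5, 32.3, 37.4, 36.2 and 34.8 at P14, 37.2, 36.7, 45 and 44.8 at P24, and 38.2, 34, 39.5 and 33.8 at P60. All stages lay within a narrow band, with a log2 fold change from P1 to P60 of 0.44 ± 0.10 (adjusted p = 0.00042). Irf9, the DNA-binding partner of Stat2, read 23.7, 20.9, 23 and 27.7 CPM at E13, 20.6, 21.1, 20.1 and 16 at E17, 15.7, 19.2, 14.8 and 16 at P1, 19.2, 15.9, 17.2 and 14 at P5, 23.5, 24.4, 30.3 and 25.9 at P14, 29.6, 34, 38.4 and 35.9 at P24, and 30.8, 32.4, 38.4 and 34.8 at P60. Its P14, P24 and P60 libraries exceeded all of P1 and P5, and the log2 fold change from P1 to P60 was 1.05 ± 0.13 (adjusted p = 5.2e-08), which became 0.99 without P60 replicate 3 and 0.86 with scaling by library size alone; its exons overlap those of Rnf31 on the same strand.

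Irf7, the interferon-inducible amplifier of the type I response, read 0.662, 0.606, 1.23 and 1.53 CPM at E13, 1.3, 2.27, 1.86 and 1.76 at E17, 0.875, 2.54, 1.64 and 2.39 at P1, 1.25, 1.12, 1.93 and 1.21 at P5, 2.40, 2.49, 4.21 and 2.39 at P14, 6.46, 8.89, 12.4 and 8.24 at P24, and 7.09, 7.11, 12.8 and 11.6 at P60. P24 and P60 overlapped and lay above every earlier library. Irf7 was called from P5 to P14 (1.07 ± 0.33, adjusted p = 0.0137), a call lost without P14 replicate 3 (0.82, adjusted p = 0.0822) or P5 replicate 2 (0.98) and with scaling by library size alone (0.90), and from P14 to P24 (1.64 ± 0.31, adjusted p = 0.0011). Its exons overlap those of Phrf1 on the opposite strand, a gene with far more counts over all libraries. Irf1, induced mainly by interferon gamma, was at 14.6 ± 1.59 CPM at P1, 12.3 ± 1.15 at P5, 23.5 ± 2.87 at P14 and 29.1 ± 0.536 at P60, and its change from P1 to P60 (1.00 ± 0.13, adjusted p = 3.2e-07) lay at the 2-fold limit without reaching it, although 15 of 37 alternatives called it. Irf8, a factor of macrophages and dendritic cells, was the member with its highest mean at E13 (7.21 ± 2.49 CPM), and from P1 to P60 it changed by 0.38 ± 0.24 (adjusted p = 0.168).

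Upstream of these genes, interferon transcripts themselves were at or near 0 counts. The 18 interferon genes in the list (type I, Ifng and lambda) held 11 counts in total over the 28 libraries, 15 of them had no count at all, and E13, P24 and P60 libraries held 0 counts, where 3 counts correspond to at most 0.237 CPM. Of the 29 receptor and signalling genes, all were tested, and 8 were called higher and 1 lower from P1 to P60. Of the receptor subunits, Ifnar1 stood at 104 ± 3.21 CPM at P1 and 94.4 ± 2.92 at P60, and Ifngr1 at 47.2 ± 1.88 and 82.4 ± 5.60. Irf4 and Socs3, a feedback inhibitor of cytokine signalling, were among those that rose (3.78 and 2.03 on the log2 scale), and Cgas, the cytosolic DNA sensor, fell from 6.63 ± 2.46 to 0.942 ± 0.371 CPM (-2.82 ± 0.31, adjusted p = 1.3e-08).

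Other interferon-stimulated genes, 59 of 64 listed being tested, took the same steps in part. From P5 to P14, 16 were called higher and 2 lower, from P14 to P24 10 higher and 0 lower, from P24 to P60 2 higher and 1 lower, and from P1 to P60 40 higher and 3 lower, with a median log2 fold change of 1.73. The largest rises from P1 to P60 were those of Tgtp2, from 0.0469 to 2.67 ± 0.481 CPM, Gbp5 (5.34 ± 0.33, adjusted p = 1.4e-13) and Ifit3b. The genes that fell were Slfn9 (-5.00 ± 0.31, adjusted p = 1.5e-13), the chemokine Cxcl10, from 6.82 ± 0.837 to 1.67 ± 0.961 CPM (-2.02 ± 0.33, adjusted p = 7.9e-06), and Parp14 (-1.07 ± 0.18, adjusted p = 1.1e-05). Of 15 tested among 17 other class I genes, 8 were called higher and 2 lower from P1 to P60. H2-Q10, H2-Q6 and H2-T23 rose most, to 2.22 ± 0.512, 7.32 ± 2.29 and 37.6 ± 5.51 CPM from 0.0246, 0.221 and 2.75, and Calr and Pdia3, general chaperones of the endoplasmic reticulum that also serve the peptide-loading complex, fell (-1.39 and -1.36).

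Some markers of vessels, perineurium and fibroblasts were also called higher over the same period. Of the 10 endothelial markers, 7 were called higher from P1 to P60 and 1 from P5 to P14, and their sum went from 227 to 268 CPM at P1 to 356 to 431 at P5, 538 to 633 at P14 and 770.4 to 911 at P60. Of the 5 perineurial markers, 4 were called higher from P5 to P14 and all 5 from P1 to P60, with a sum of 174 to 222 CPM at P5, 473 to 574 at P14, 532 to 822 at P24 and 1017 to 1450.040 at P60. Of the 8 Schwann cell markers, 4 were called higher and 1 lower from P1 to P60, and 1 higher from P5 to P14. Mbp was among those called higher from P1 to P60 (1.87 on the log2 scale), and Sox10 was not called (0.34). The 8 markers summed to 23056 to 43327 CPM at P1, 152355 to 179341 at P14 and 77848 to 100197 at P60. Of the 6 pericyte and smooth muscle markers, 4 were called higher and 0 lower from P1 to P60, and 1 from P5 to P14, their sum going from 204 to 214 CPM at P1 to 564 to 623 at P60. Of the 7 fibroblast and mesenchymal markers, 4 were called higher and 2 lower from P1 to P60, and 2 higher from P5 to P14. Their sum fell, from 12315 to 17672 CPM at P1 to 11753 to 17154 at P14 and 4933 to 7099 at P60. The 10 macrophage markers summed to 260.4 to 297 CPM at P5 and 231 to 283 at P14, with 1 called higher and 1 lower at the step at which 12 members were called higher. Whether these cells contribute to the rise of the members was not tested.

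From E13 to E17, 14 members were called higher and 2 lower (41.0%), against 35.5% of all genes called, 14.2% higher and 21.2% lower. Besides Ifit2 and Xaf1, the largest rises were those of H2-Ab1 (2.92 ± 0.27, adjusted p = 4.9e-10), Gbp3 (2.28 ± 0.29, adjusted p = 1.7e-07) and Cd74 (2.16 ± 0.25, adjusted p = 4.1e-08). B2m, Tap1, Tap2, H2-Aa, H2-Eb1, Irf1, Ifih1, Gbp7 and Ifi35 were also called higher, by 1.315 to 1.92 on the log2 scale. The 2 that fell were Irf8 (-1.29 ± 0.24, adjusted p = 3.5e-05) and Oas1a (-1.50 ± 0.48, adjusted p = 0.00822), the latter no longer called without E13 replicate 4 (-0.88, adjusted p = 0.0943). Of the 10 macrophage markers, 9 were called lower at this step, their sum going from 417 to 532 to 126 to 144 CPM, and neutrophil markers went from 27.5 to 64.4 to 2.75 to 6.02 CPM. At the same step 5 of the 7 fibroblast and mesenchymal markers were called higher, their sum going from 1519.970 to 2592 to 16126 to 18079 CPM, as were Sox10 and Mbp (1.47 and 4.04 on the log2 scale), and the part of these cells in the members' changes was not tested.

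Libraries of one stage also differed among themselves, and they did so for many interferon genes at once. P24 replicate 3 was the highest of its stage for 30 of the 39 members, and P24 replicate 1 the lowest for 20. Among the 24 interferon members (all but class I, class II and the immunoproteasome), P24 replicate 3 was highest for 19 and P24 replicate 1 lowest for 18. At P60, replicate 3 was highest for 14 of these 24 and replicate 2 lowest for 14. The library numbered 3 was the one most often highest over the 39 members at 5 of the 7 stages, with 14 members at E17, 17 at P5, 21 at P14 and 18 at P60 beside the 30 at P24. Over the 24 interferon members alone it led at P14 (13), P24 (19) and P60 (14). At E17 it tied with replicate 2 (8 each), and at P5 it had 6 against 8 each for replicates 1 and 2. P60 replicate 3 was at the same time the lowest of its stage for Cd74, H2-Aa, H2-Ab1 and H2-Eb1. Leaving out any one library kept the number of members called between 10 and 14 at P24 against P14, at 4 at P60 against P24, and between 28 and 32 at P60 against P1.

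Compared per length of exon sequence (RPKM, from the TMM-scaled values), B2m was the most abundant member at every stage, at 223 ± 18.8 RPKM at P1 and 722 ± 22.4 at P60 (mean ± SD). The order below it changed. At P1, Bst2 (14.3 ± 3.24 RPKM), H2-D1 (10.6 ± 1.74) and Psmb10 (10.2 ± 4.06) followed, with overlapping SD ranges. At P60 the next were Cd74 (78.3 ± 13.5 RPKM), which had been the ninth at P1, and H2-D1 (77.3 ± 7.37), which did not differ beyond their SD, then H2-K1 (48.8 ± 3.91). The transactivators Nlrc5 and Ciita were among the least abundant members, at 0.711 ± 0.149 and 0.206 ± 0.0648 RPKM at P60.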

How the data were processed

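Per the labels and the methods of the study, the authors trimmed single-end reads from strand-specific poly(A) libraries, aligned them with STAR (2.6.1c in the submitters' processing notes, which name the build GRCm38.p5) and assigned them to genes with featureCounts; the deposited values are raw counts per Ensembl gene, 1 column per library. Strand and multi-mapping settings are not given in the sources used here. Of 41605 identifiers, 41519 (99.79%) matched GENCODE M21. Counts were scaled by TMM and fitted in edgeR 4.0.16 (R 4.3.3, quasi-likelihood, robust, stage as the only term, all 28 libraries), on the 17700 genes kept by filterByExpr (common dispersion 0.0439), with Benjamini-Hochberg adjustment over all of them. A call needed an adjusted p under 0.05 and a 2-fold change. Alternatives used DESeq2 1.42.0, limma 3.58.1, other scalings and filters, a replicate block and each library left out. Library values are printed for the 2 most abundant members and the 2 with the largest P60 against P1 change of each group, and for all of a group of 3, with Ciita added after its values were seen; from other lists, up to 3 called rises and 3 called falls. The members, lists and markers were chosen with earlier results of these data known. Promoter windows are from RefSeq (GRCm38.p6). Postnatal replicates were separate mice and embryonic ones pools, so p-values measure the spread between animals or pools. A few genes of the other lists are not reported here.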

Additional observations from a re-analysis of the deposited data

Results flagged for a closer look

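Within the stages, 14 of the 273 sets of 4 libraries examined (39 members at 7 stages) held 1 library whose gap to the nearest other exceeded Dixon's critical value, where chance flags about 1 in 20, or 13.65 sets. P60 replicate 3 was high with 15 CPM for Isg15 (others 8.27 to 8.92) and 20.1 CPM for Ifit1 (others 9.80 to 11.5), and low with 70.2 CPM for H2-Aa (others 105 to 112). P14 replicate 3 was high with 4.21 CPM for Irf7 (others 2.39 to 2.49) and 11.8 CPM for Oasl2 (others 8.49 to 8.99). E13 replicate 4, one of the libraries whose deviations went with GC content, was high with 1.79 CPM for Isg15 (others 0.606 to 0.758), 1.53 CPM for Usp18 (others 0.686 to 0.828) and 10.5 CPM for Bst2 (others 6.42 to 6.97). E17 replicate 4 was high with 12.4 CPM for H2-K1 (others 8.91 to 9.19) and low with 1.95 CPM for Gbp2 (others 2.80 to 2.87). At P5, replicate 3 was high with 1.93 CPM for Irf7 (others 1.12 to 1.25), replicate 4 low with 3.30 CPM for Gbp2 (others 4.38 to 4.41) and replicate 1 low with 1.38 CPM for Ifit3 (others 1.84 to 1.89). E13 replicate 2 held the Ciita counts of its stage, with 0.323 CPM while the others were at 0. The number of sets flagged is close to that given by chance.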

How the results depend on the processing

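Of the 76 called member fold changes, 62 kept their call and direction under every alternative run, 14 lost the call under at least 1, and 0 reversed. Of changes just under 2-fold, those of Isg15 and Nlrc5 at P14 against P5 and Irf1 at P60 against P1 gained the call in 21, 19 and 15 of 37 alternatives. Scaling by library size alone cost 8 calls: Ifit1 at P1 against E17, Irf7, Xaf1, Ifi27, Tapbp and H2-K1 at P14 against P5, and Irf9 and Ifit2 at P60 against P1. Under that scaling the all-gene median on the log2 scale became -0.17 at P14 against P5, -0.19 at P5 against P1, -0.22 at P60 against P1, -0.11 at P1 against E17 and -0.33 at E17 against E13, and the members called became 7 at P14 against P5 and 1 at P1 against E17. Of 297 calls among the other listed genes, it cost 28 and turned the sign of 0, and of the 273 member changes of any size, called or not, it turned the sign of 27. DESeq2's test and size factors cost 0 member calls, and limma-voom (Oas1a at E17 against E13, Ifit1 at P1 against E17) and the absence of a filter (Irf9 and Ifit2 at P60 against P1) cost 2 each. Without the fold minimum, members with an adjusted p under 0.05 numbered 25 at E17 against E13, 10 at P1 against E17, 8 at P5 against P1 and 25 at P14 against P5. Leaving out each library in turn, members called ranged from 16 to 18 at E17 against E13, 1 to 3 at P1 against E17 (1 without P1 replicate 4), 0 to 2 at P5 against P1 (2 without P1 replicate 4), 11 to 14 at P14 against P5, 10 to 14 at P24 against P14, 4 in each case at P60 against P24, 28 to 32 at P60 against P1, and 37 to 38 along the timeline. Leaving out E13 replicates 1 and 4 and P1 replicate 1 together gave 3 at P1 against E17 and 0 at P5 against P1. The replicate numbers were not taken to pair the samples, since same-numbered libraries deviated together in only part of the pairs (correlations of deviations from -0.202 to 0.571, median 0.084) and the labels name nothing that they share. Still, 18 of 28 libraries were closest to one of their own number. The library numbered 3 was most often highest over the 39 members at 5 of 7 stages, and both are hints from the data. Over the 24 interferon members it led alone only at P14, P24 and P60. With the replicate number as a block 0 of the 76 calls were lost, 17 members being called at E17 against E13, and 37 of the 38 members kept their timeline call. Depth limits Ciita and Mx1, with few counts per library, and the interferon genes, which could not be tested.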
